A study of Mus musculus with 267 samples.

Results

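H3K27ac, the acetylation of lysine 27 of histone H3 that marks active enhancers and promoters, was compared between bone marrow-derived macrophages (BMDMs) treated with IL-4 for 1 h and untreated (basal) BMDMs. The comparison took 4 of the 267 samples of the series, 2 libraries at 1 h and 2 basal libraries, and every one of the 77955 regions of the time-course table, each 1000 bp around the centre of an open-chromatin peak found by ATAC-seq. All groups came from wild-type female C57BL/6J (C57) mice, whose marrow was differentiated with M-CSF, and the labels give no transgene, deletion or other treatment for any of them. IL-4 was given at 20 ng/ml; H3K27ac libraries at 6 and 24 h (2 each) and Pol II libraries (4 basal, 1 at 1 h) from the same table were used beside the comparison. The labels call the libraries biological replicates without naming the animals or cultures, so the p-values below measure the spread between these libraries. BMDMs are a culture model grown in excess M-CSF and are not a resident tissue macrophage.

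IL-4 binds a receptor whose JAK kinases phosphorylate STAT6. The phosphorylated STAT6 dimerizes, enters the nucleus and binds palindromic sites in which TTC and GAA stand 4 bases apart. In macrophages this starts the alternative activation programme, with Arg1 (arginase), the chitinase-like Chil3 and the amino acid transporter Slc7a2 among its genes, and it also switches on the SOCS proteins, which inhibit JAK-STAT signalling in return. H3K27ac is laid down by p300 and CBP at enhancers that become active, and removed by histone deacetylases, so its level at a region can move either way.

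The following sequences stand near the middle of STAT6 peaks found at 1 h that overlap regions in which H3K27ac rose, and they are shown because a site of this form was held by more of the risen regions than of all regions. Each is 200 bases of the plus strand of GRCm38.p6 (mm10) as given by RefSeq, read 5′ to 3′, named by the nearest gene, with every TTCNNNNGAA match in capitals. The first 7 hold 1 or 2 matches and the last 2, at the Slc7a2 promoter and upstream of Arg1, hold none.
1700010I14Rik, chr17:8973233-8973432: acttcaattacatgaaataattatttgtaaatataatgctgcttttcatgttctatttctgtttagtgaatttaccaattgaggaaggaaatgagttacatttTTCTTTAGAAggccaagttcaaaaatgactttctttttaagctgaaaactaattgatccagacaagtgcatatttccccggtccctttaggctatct
Socs1, chr16:10702431-10702630: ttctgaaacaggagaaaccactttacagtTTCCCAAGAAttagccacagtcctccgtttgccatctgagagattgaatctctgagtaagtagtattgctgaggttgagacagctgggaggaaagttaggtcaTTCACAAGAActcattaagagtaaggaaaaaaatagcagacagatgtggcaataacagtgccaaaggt
Cry1, chr10:85266336-85266535: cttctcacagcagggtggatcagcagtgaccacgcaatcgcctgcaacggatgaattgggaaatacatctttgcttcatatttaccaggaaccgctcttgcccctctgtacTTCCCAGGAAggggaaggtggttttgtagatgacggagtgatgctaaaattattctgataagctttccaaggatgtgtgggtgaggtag
Gng12, chr6:66927521-66927720: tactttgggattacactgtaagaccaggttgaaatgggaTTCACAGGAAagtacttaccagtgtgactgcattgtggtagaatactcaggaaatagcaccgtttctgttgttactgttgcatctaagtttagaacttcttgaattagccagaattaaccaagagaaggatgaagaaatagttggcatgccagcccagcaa
Jak2, chr19:29239630-29239829: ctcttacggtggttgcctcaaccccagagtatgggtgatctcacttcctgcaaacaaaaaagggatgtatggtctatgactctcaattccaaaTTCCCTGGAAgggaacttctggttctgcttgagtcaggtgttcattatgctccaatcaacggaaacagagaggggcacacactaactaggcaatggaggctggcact
Cish, chr9:107307905-107308104: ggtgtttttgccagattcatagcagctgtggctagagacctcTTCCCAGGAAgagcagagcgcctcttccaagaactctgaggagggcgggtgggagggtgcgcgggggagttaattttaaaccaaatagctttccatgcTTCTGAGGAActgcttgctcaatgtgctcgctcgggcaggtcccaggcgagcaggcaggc
Tmem26, chr10:68723132-68723331: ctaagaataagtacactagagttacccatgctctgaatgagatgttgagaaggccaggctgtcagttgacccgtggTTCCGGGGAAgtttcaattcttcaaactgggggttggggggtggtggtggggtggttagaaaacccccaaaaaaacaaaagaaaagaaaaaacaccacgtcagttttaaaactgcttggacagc
Slc7a2, chr8:40861711-40861910: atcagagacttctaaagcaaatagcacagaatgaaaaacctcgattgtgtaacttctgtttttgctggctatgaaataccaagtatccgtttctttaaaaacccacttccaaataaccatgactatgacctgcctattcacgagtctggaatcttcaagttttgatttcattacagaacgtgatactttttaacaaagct
Arg1, chr10:24931590-24931789: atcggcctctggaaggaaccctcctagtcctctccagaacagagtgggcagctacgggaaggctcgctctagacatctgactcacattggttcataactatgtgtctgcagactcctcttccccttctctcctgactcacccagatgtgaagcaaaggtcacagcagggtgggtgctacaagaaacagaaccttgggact
The palindrome reads the same on both strands, so 1 search covered both. The regions' centres lay upstream of the nearest gene start by 14745 bp at 1700010I14Rik, 81268 bp at Cry1, 12134 bp at Jak2, 14 bp at Slc7a2 and 4183 bp at Arg1. They lay past the start by 83017 bp at Socs1, 31048 bp at Gng12, 11384 bp at Cish and 74 bp at Tmem26. The authors' annotation calls the Slc7a2 and Tmem26 regions promoters, those at 1700010I14Rik, Socs1 and Gng12 intronic, and the others intergenic. At Tmem26 and Slc7a2 the STAT6 peak overlapped only the edge of the counted region, so most of the printed bases, and the Tmem26 site, lie before its first base.

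The 4 libraries differed in how many of their tags lay inside the regions. The deposited values are tags per 10000000 tags of the whole library, and the totals of the 8 H3K27ac libraries ran from 11780899 to 29050468. The share of tags inside the regions was 69.7 and 63.8% in the basal libraries and 44.0 and 20.5% in the 1 h libraries. The means were 66.7% ± 4.21 and 32.2% ± 16.6 (SD, n = 2 each), which do not overlap, but an exact permutation test of 2 against 2 libraries gave p = 0.333 (two-sided), the smallest it can give. Replicate 2 at 1 h stands apart: it is the deepest library, has the lowest share, and only 112 regions without a tag, against 1137 to 3852 in the other 7 H3K27ac libraries. A broad loss of acetylation and a lower enrichment of these immunoprecipitations cannot be told apart from these values. The regions were therefore scaled in a second way, by the median ratio over the regions, with factors of 1.324 and 1.202 for the basal libraries and 0.928 and 0.556 for the 1 h libraries, which sets the typical region to no change.

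**Figure D1:**
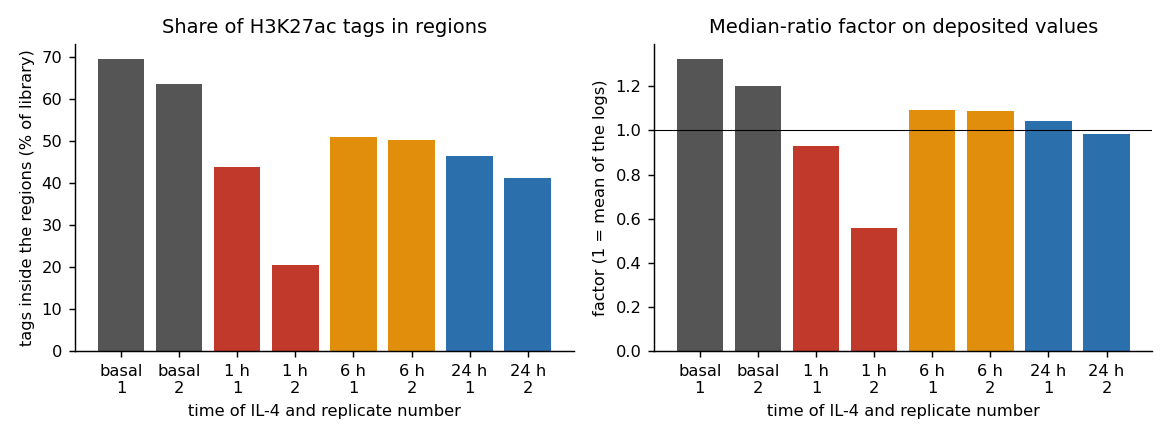
Left, the share of each H3K27ac library's tags that lay inside the 77955 regions, in percent; right, the median-ratio factor of each library on the deposited values, with the line at 1. Bars are single libraries in 4 groups (basal, 1, 6 and 24 h of IL-4); 1 h replicate 2 is lowest in both plots, at 20.5% and 0.556.

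The choice of scaling moved the whole distribution. The median log2 fold of all regions, 1 h over basal, was -0.63 with library totals and 0.09 with median ratios, a shift of 0.72. With library totals limma called 1065 regions higher (1.37% of those tested) and 6515 lower (8.36%) at a Benjamini-Hochberg adjusted p under 0.05; with median ratios it called 1578 higher (2.02%) and 638 lower (0.818%). So the split turned from mostly falls to mostly rises. Of the 6515 falls, 9.79% were still called with median ratios, 5877 were not called and 0 changed direction. Of the rises called with library totals 91.3% were also called with median ratios, and of those called with median ratios 61.6% were also called with library totals. All 638 falls called with median ratios were falls with library totals too. Median ratios shift the folds upward, so more rises and fewer falls follow from the scaling itself. The fold rule of the study's thresholds, without a condition on Pol II (2.5-fold between group means plus 1 tag, and 16 tags in either group, with no test), showed the same dependence, from 1800 higher (2.31%) and 16049 lower (20.6%) to 4116 (5.28%) and 3678 (4.72%).

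**Figure D2:**
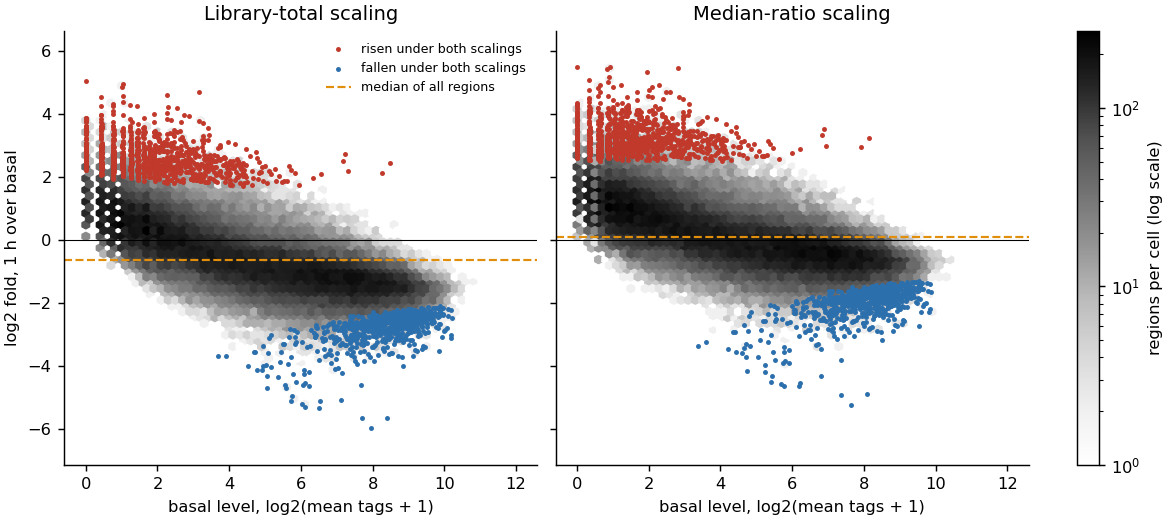
Log2 fold of H3K27ac (1 h over basal, limma) against the basal level in log2(mean tags + 1), for all 77955 regions as shaded cells with a log colour scale, under library-total (left) and median-ratio (right) scaling. Red points are the 972 regions risen and blue points the 638 fallen under both scalings; the dashed line, the median of all regions, moves from -0.63 to 0.09.

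Regions called in the same direction under both scalings are described as risen or fallen from here on: 972 rose (1.25%) and 638 fell (0.818%). In 971 of the 972 and in all 638, the 1 h and basal libraries did not overlap with library totals. Leaving 1 of these libraries out could therefore not turn the sign of those folds, so the direction was not tested in this way. Leaving out single libraries moved the counts of rises and falls widely, over the ranges given in the section on processing at the end. Without 6 h replicate 1 they were 272 and 98, and without 6 h replicate 2 they were 280 and 93. Without 24 h replicate 1 they were 945 and 484, and without 24 h replicate 2 they were 975 and 518.

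Regions nearest Sfi1 (95 regions, chr11:3099959-3198047), which encodes a centrosome protein, stood apart in a way that did not follow IL-4 in every assay. Of them 34 fell and 13 rose, more falls than for any other gene. The summed H3K27ac over these regions was 5526 and 5821 tags in the basal libraries, 1742 and 2680 at 1 h, 1603 and 2120 at 6 h, and 7909 and 7787 at 24 h. The Pol II sum over the same regions was also low in basal replicate 1 (1638), as at 1 h (1438), and was 3897 to 6907 in the other 3 basal libraries. The basal and 1 h H3K27ac libraries therefore lay on opposite sides of a split that in Pol II ran through the basal group, and its part in these regions cannot be told apart from IL-4 time. Whether reads there could come from near-identical copies elsewhere was not tested, so values at Sfi1 and at Scaf8 (2 falls on chromosome 17) are uncertain. Leaving out both genes and 12 mitochondrial regions, 132 regions in all, left 959 rises and 602 falls. That step takes out those regions only. A difference between the libraries that reached other regions would coincide with the 1 h and basal groups in the same way, and was not tested.

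The labelled cell type was checked against marker genes. All 8 macrophage markers, among them Spi1 (the factor PU.1), Csf1r (the M-CSF receptor) and Adgre1 (F4/80), had a region within 1 kb of their start. Each of these regions had at least 16 tags in every basal and 1 h library. At Spi1 the level was 912 and 784 tags in the basal and 457 and 185 in the 1 h libraries. Summed over the 8 markers it was 4744 and 4427 basal and 2406 and 905 at 1 h, so it went the way of the share of tags in regions. Markers of dendritic cells, fibroblasts, erythroid cells and mast cells that had such a region (7 of 17) summed to at most 6.42 tags per library and type. Cd3e, Cd3d and Cd3g, which define T cells, had no region at their start. At the starts of Cd28, Kdr and S100a8, which are T cell, endothelial and neutrophil markers, the basal levels were 220 and 272, 155 and 39.9, and 55.6 and 19.3 tags, and the 1 h levels were 128 and 89.8, 42.5 and 21, and 76.5 and 9.64. Fewer marked cells and less acetylation per cell cannot be told apart in bulk chromatin.

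The 972 risen regions started from almost nothing. Their median level was 2.04 and 1.43 tags in the basal libraries and 25.5 and 12.1 at 1 h, while the median over all regions was 19 and 19.3 basal and 15.5 and 9.98 at 1 h. In 93.5% of them the basal mean was under 16 tags, as in 46.4% of all regions, and 74 had no basal read at all. Among the 5097 regions with a basal mean under 1 tag 5.08% rose, and among the 7925 regions of the highest of 6 basal-level classes 0.0252% rose. The median log2 fold also ran with the basal level. Under 1 tag it was 1.01 with library totals and 1.42 with median ratios, and in the highest class -1.51 and -0.70. Scaling by a factor per library left this trend in place. The rises were called on these same basal values, so a low basal level is favoured by the choice itself. The risen regions formed 756 separate loci when regions within 5000 bp were joined. Of the 972 regions 810 lay within 100 kb of the start of 1 of 544 protein-coding genes. Distal positions prevailed: 46.6% were intergenic, 44.0% intronic and 4.12% at promoters, against 32.8%, 43.5% and 16.1% of all regions.

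Other basal marks were lower or less frequent in the risen regions than over all regions. H3K4me2, which marks primed and active regulatory elements, had basal medians of 10.6 and 9.85 tags in the 64.3% of them that had a counterpart in the table of that mark, against 45.7 and 45.8 over all regions with one. Some risen regions carried more, such as the Socs1 region 1169 bp past the start with 115 and 153 tags and the Msx3 promoter with 118 and 161. A basal peak of the lineage factor PU.1 overlapped 28.9% (all regions 62.3%), and 66.9% held neither a PU.1 nor a C/EBPβ basal peak (all regions 34.4%). For 45.6% the ATAC-seq peak was listed at 1 h and not in basal cells, against 15.7% of all regions; for 38.4% (all regions 57.8%) it was listed at both times. These shares are counts of regions, neighbours among which overlap, were not compared at an equal basal level, and carry no test.

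**Figure D3:**
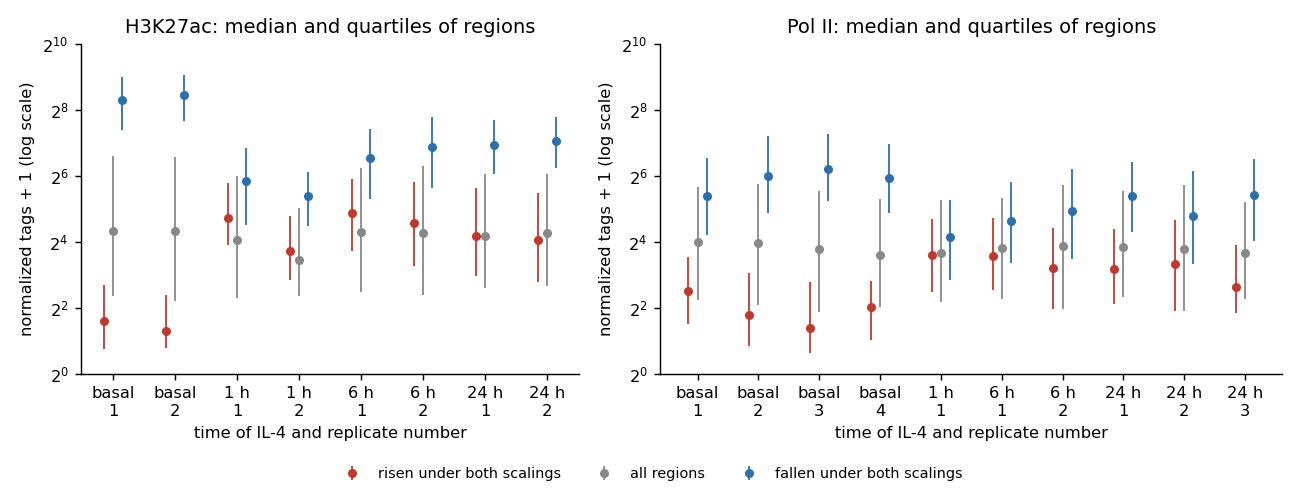
Median (points) and quartiles (lines) of normalized tags plus 1, on a log scale, over the 972 risen (red), 638 fallen (blue) and all regions (grey), in each H3K27ac library (left) and each Pol II library (right), ordered by time of IL-4 and replicate. The risen regions go from basal medians of 2.04 and 1.43 to 25.5 and 12.1 at 1 h and the fallen regions from 313 and 347 to 56.4 and 40.6; the members were chosen on the basal and 1 h H3K27ac values.

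STAT6 peaks were frequent at the rises. A STAT6 peak listed at 1 h overlapped 583 of the 972 (59.98%, 95% exact binomial interval 56.8 to 63.1), against 29.3% of all regions. For 516 (53.1%, 49.9 to 56.3) the STAT6 peak was present at 1 h and not in basal cells, which was so in 8.28% of all regions. A basal STAT6 peak was less frequent in them than over all regions, at 10.3% and 36.4%. Peaks of EGR2, a zinc-finger factor that IL-4 induces in BMDMs, gained at 1 h overlapped 11.8%, against 7.63% of all regions.

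The 4-spacer site printed above in capitals separated regions with a STAT6 peak further. TTCNNNNGAA occurred in the central 200 bp of 36.9% of the risen regions (33.9 to 40.1), 6.04% of all regions and 1.41% of the fallen. With a 1 h STAT6 peak 54.0% of the risen regions held it, without one 11.3%. Of the 1600 regions with a gained STAT6 peak and the site, 279 rose (17.4%); of the 4853 with a gained peak and no site, 237 rose (4.88%). Where STAT6 was present at both times, 2.53% of regions with the site and 0.207% of those without it rose, and where it was listed at neither time, 2.78% and 0.757%. So most regions that gained STAT6, site or no site, were not called. The median log2 fold of the 1600 was 1.02 with library totals and 1.72 with median ratios.

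Other short words were spread less unevenly. The 3-spacer form TTCNNNGAA, to which other STAT proteins bind, was in 12.96% of risen and 5.63% of all regions; it was counted apart from the 4-spacer form, and a region may hold both. AP-1 (TGANTCA) was in 23.4% of risen, 22.3% of fallen and 16.8% of all regions, and C/EBP (TTGCNNAA) in 19.03%, 12.07% and 11.98%. The PU.1 core GAGGAAG was in 15.3% of risen, 27.4% of fallen and 20.8% of all regions. Words were searched on both strands. The median GC content of the central 200 bp was 47.0% in risen, 50.8% in fallen and 52.0% in all regions, and the shares were not compared at equal GC content.

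**Figure D4:**
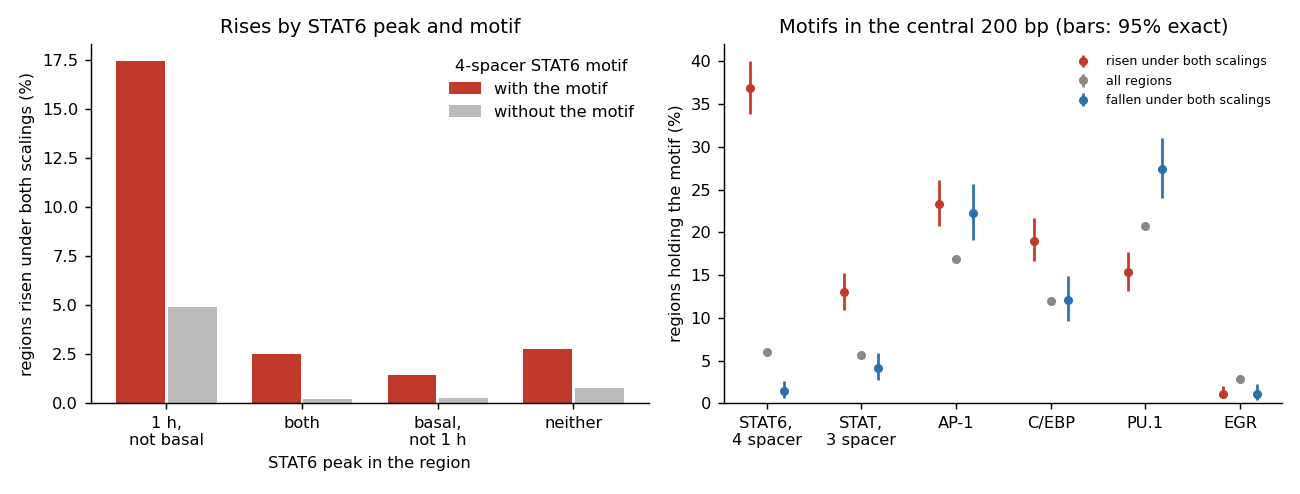
Left, the percentage of regions risen under both scalings among regions grouped by STAT6 peaks (1 h and not basal, both, basal and not 1 h, neither) and by the TTCNNNNGAA site in the central 200 bp (red with, grey without), from 17.4% with a gained peak and the site down to 0.207%. Right, the percentage of risen (red), fallen (blue) and all (grey) regions that hold each of 6 motifs. Bars are 95% exact binomial intervals, which take regions as independent. STAT6 with 4 spacer bases stands at 36.9% of risen, 1.41% of fallen and 6.04% of all regions.

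Of the gene groups, feedback inhibitors and alternative activation genes held most rises. Of 240 regions nearest 19 feedback inhibitor genes, 23 rose (9.58%) and 2 fell, and of 297 regions nearest alternative activation genes (29 of 30 with a region; Retnla had none), 22 rose (7.41%) and 0 fell. Over all regions within 100 kb of a start, 1.14% rose and 0.792% fell. The median log2 fold with median-ratio scaling was 0.56 in the feedback group, 1.06 in the alternative activation group and 0.08 over all those regions; with library totals they were -0.15, 0.30 and -0.65, so the sign for the feedback group depended on the scaling. For the 0 falls among alternative activation genes, limma gave 9 at an unadjusted p under 0.05 under both scalings, edgeR 0 under both of its scalings and DESeq2 2. The nearest gene is a label by distance and not a measured target. Shares of the gene lists, here and below, were not compared at an equal basal level.

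Socs1, the inhibitor of JAK kinases, held 17 of the 23 feedback rises. These spanned 92.9 kb (chr16:10694688-10787570) and were 17 of its 28 regions, none of which fell; 11 carried a STAT6 peak at 1 h and 7 the 4-spacer site. The region 1169 bp past the Socs1 start (chr16:10783867-10784867) had 12.2 and 3.57 tags in the basal libraries and 328 and 122 at 1 h. The groups did not overlap, and the log2 fold was 4.69 ± 0.64 (SE; limma adjusted p = 0.00349). Pol II at that region was 11.9, 22.5, 12.9 and 13.2 tags in the 4 basal libraries and 519 in the 1 h library. At the Socs1 promoter (987 bp upstream) H3K27ac was already measurable, at 74.6 and 29.2 tags, and reached 395 and 127 (log2 fold 2.23 ± 0.64, adjusted p = 0.0373). The other regions of the locus, chosen here because they were called, had log2 folds up to 4.60, and the 11 regions not called had a median of 0.47. The genes next to it on chromosome 16 also carried rises, 10 regions nearest Rmi2 and 8 nearest Clec16a.

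Of the other feedback genes, Cish rose at 4 regions and Socs5 and Socs6 at 1 each. Cish, the cytokine-inducible SH2 protein of the SOCS family, had 4.75 and 1.43 tags basal and 39.4 and 19.6 at 1 h at a region 11384 bp from its start, with 2 of the 4-spacer sites shown above (log2 fold 2.95 ± 0.59, adjusted p = 0.0132). The Socs5 region rose from 6.78 and 22.8 to 71.9 and 72.3 tags, and the Socs6 region from 16.96 and 2.85 to 107 and 25.1. Socs2, which also inhibits cytokine signalling, had 0.68 and 0.71 tags basal and 11.6 and 2.41 at 1 h at its most changed region, which was not called (adjusted p = 0.0850). Dusp1, a phosphatase of MAP kinases, was the feedback gene with falls; its region 6319 bp upstream went from 415 and 468 to 131 and 45.1 tags (log2 fold -2.50 ± 0.59, adjusted p = 0.0204).

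Alternative activation genes rose at 22 regions of 11 genes. At the Slc7a2 promoter (chr8:40861882-40862882), whose printed STAT6 peak sequence holds no 4-spacer site, H3K27ac was 10.9 and 4.99 tags basal and 439.9 and 30.0 at 1 h. Both 1 h libraries lay above both basal libraries, though far from each other, and the log2 fold was 3.79 ± 0.86 (adjusted p = 0.0180). With library totals, this call was lost when certain single basal or 1 h libraries were left out. So were those at the named regions of Tmem26, Il4i1, Cish, Socs5, Socs6 and Dusp1 and at the Arg1 region 25293 bp upstream. The calls at the Socs1 region 1169 bp past the start and at the named Jak2 region were kept. Pol II at the Slc7a2 promoter was 42.4, 15.3, 2.14 and 5.06 in the basal libraries and 202 at 1 h. Tmem26, a membrane protein that IL-4 induces in macrophages, rose at its promoter from 6.78 and 2.85 to 157 and 21 tags (log2 fold 3.43 ± 0.79, adjusted p = 0.0190), with Pol II at 51.2, 22.5, 3.22 and 5.06 basal and 128 at 1 h. In Pol II, basal replicate 1 was the highest of the 4 basal libraries at both promoters.

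Arg1, which turns arginine into ornithine and urea, rose at 5 of its 12 regions within 100 kb. At the enhancer 4183 bp upstream (chr10:24931167-24932167) H3K27ac was 10.2 and 24.96 tags basal and 271 and 36.5 at 1 h. The groups are separate by a small margin, with 24.96 against 36.5, and the log2 fold was 2.57 ± 0.74 (adjusted p = 0.0386). The region with the largest fold, 25293 bp upstream, went from 1.36 and 0.71 to 66.5 and 5.85 tags, or from 3 to 103 reads over the group, a ratio of 23.5 per tag of depth (95% exact counting interval 7.83 to 116). Pol II at that region was 0 in 3 basal libraries, 2.03 in the fourth and 13.2 at 1 h. Il4i1, an oxidase of aromatic amino acids, rose from 15.6 and 18.5 to 250 and 88.1 tags at a region 9347 bp upstream (log2 fold 3.05 ± 0.58, adjusted p = 0.0116). Chil3 rose at a region 3199 bp upstream from 0 and 4.28 to 14.7 and 12.1 tags (adjusted p = 0.0283).

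Several genes of the programme were not called under both scalings in their named region. At Egr2 the region 112 bp past the start had 29.2 and 22.8 tags basal and 335 and 44.4 at 1 h, with a log2 fold of 2.21 ± 0.72 (adjusted p = 0.0583) with library totals and 2.997 (adjusted p = 0.0216) with median ratios. Other tests called the Egr2 region higher: edgeR gave an adjusted p of 0.0278 with library totals and 0.0158 with TMM, DESeq2 1.04e-05, and limma with a replicate block 0.00112. Its Pol II values were 119.8, 67.4, 39.7 and 50.6 basal and 405 at 1 h. The Ccl24 promoter had 10.9 and 22.1 tags basal and 7.73 and 14.1 at 1 h, and the region named for Ccl17 had 11.5 and 9.27 and then 3.09 and 5.85; both genes encode chemokines of type 2 immunity. The Ccl24 fold changed sign with the scaling, at -0.53 with library totals and 0.23 with median ratios. Mrc1, the mannose receptor, had 254 and 235 tags basal and 88.1 and 53.7 at 1 h in its named region, lower with library totals (adjusted p = 0.0422) and not with median ratios (adjusted p = 0.143).

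In the receptor and JAK-STAT group 4 of 168 regions rose (2.38%) and 0 fell by limma. Over all regions within 100 kb 1.14% rose and 0.792% fell, and counts this small were not tested against those shares. Before adjustment, 18 of the group were lower by limma at a p under 0.05, while edgeR called 0 lower and DESeq2 7. The Jak2 region 12134 bp upstream, with the site shown above, had 2.04 and 2.14 tags basal and 47.9 and 27.5 at 1 h (log2 fold 3.60 ± 0.56, adjusted p = 0.00618). The groups did not overlap, and 27.5 against 2.14 was the narrowest gap between them. A region 54055 bp upstream of Irs2, an adaptor of the IL-4 receptor, had no basal read and 4.64 and 3.79 tags at 1 h, which is at least 3.88-fold higher when the basal group is set to 3 reads.

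Of 410 regions nearest immediate early genes 3 rose (0.732%) and 3 fell (0.732%). Over all regions within 100 kb the shares were 1.14% and 0.792%, and the difference, which rests on few regions, was not tested. Of 217 nearest NF-kB and inflammatory genes 2 rose (0.922%) and 5 fell (2.30%). Bhlhe40, a circadian and immune transcription factor, rose at a region 91012 bp upstream from 8.82 and 5.70 to 128 and 21 tags (adjusted p = 0.0239). Fos, a subunit of AP-1, fell at a region 716 bp past its start from 186 and 190 to 25.5 and 20.7 tags (log2 fold -2.98 ± 0.52, adjusted p = 0.00929). Tnf, a main inflammatory cytokine, fell at a region 799 bp past its start from 674 and 400.0 to 131 and 57.1 tags (log2 fold -2.57 ± 0.60, adjusted p = 0.0200). A region 67547 bp past the start of Nfkbiz, a nuclear regulator of NF-kB, fell from 157 and 185 to 20.9 and 11.02 tags (adjusted p = 0.00758).

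Interferon-stimulated genes had 94 regions, of which 0 rose and 0 fell under both scalings. Over all regions within 100 kb 1.14% rose and 0.792% fell, so few calls would be due among so few regions. With library totals alone 13 of the 94 were lower and with median ratios alone 1 was higher. At an unadjusted p under 0.05 under both scalings, limma had 1 higher and 12 lower, edgeR called 0 and DESeq2 1 higher and 3 lower. At the Mx1 promoter, an antiviral GTPase gene, the basal libraries themselves differed, with 214 and 78.4 tags, against 21.6 and 30.0 at 1 h. Housekeeping genes had 84 regions, of which 1 (1.19%), nearest Actb (cytoplasmic actin), fell and 0 rose by limma. These counts too are small beside the shares over all regions and were not tested. Before adjustment 2 of the 84 were higher by limma at a p under 0.05, and edgeR and DESeq2 called 0 higher. Their median log2 fold was -0.84 with library totals and -0.06 with median ratios, close to the medians of all regions.

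The largest rises lay mostly away from the listed genes. The largest of the log2 folds was at an intronic region nearest 1700010I14Rik (chr17:8973088-8974088), which had 0 tags in both basal libraries and 64.2 and 15.5 at 1 h, which is at least 29.2-fold higher when the basal group is set to 3 reads. The Msx3 promoter, of a homeobox gene, went from 0 and 2.14 to 125 and 22.4 tags, and 9 of the 10 regions nearest Msx3 rose. A region 81268 bp upstream of Cry1, a repressor of the circadian clock, went from 0.68 and 1.43 to 131 and 16.2 tags, or from 3 to 216 reads, a ratio of 49.3 (16.7 to 241). The region in Gng12, a G protein gamma subunit, had 2.71 and 0.71 tags basal and 68.0 and 32.7 at 1 h (log2 fold 4.26 ± 0.61, adjusted p = 0.00396). The region nearest Ang5, of the angiogenin ribonuclease family, went from 2.04 and 0 to 83.5 and 28.6 tags. In all of these 1 h replicate 1 was above replicate 2.

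**Figure D5:**
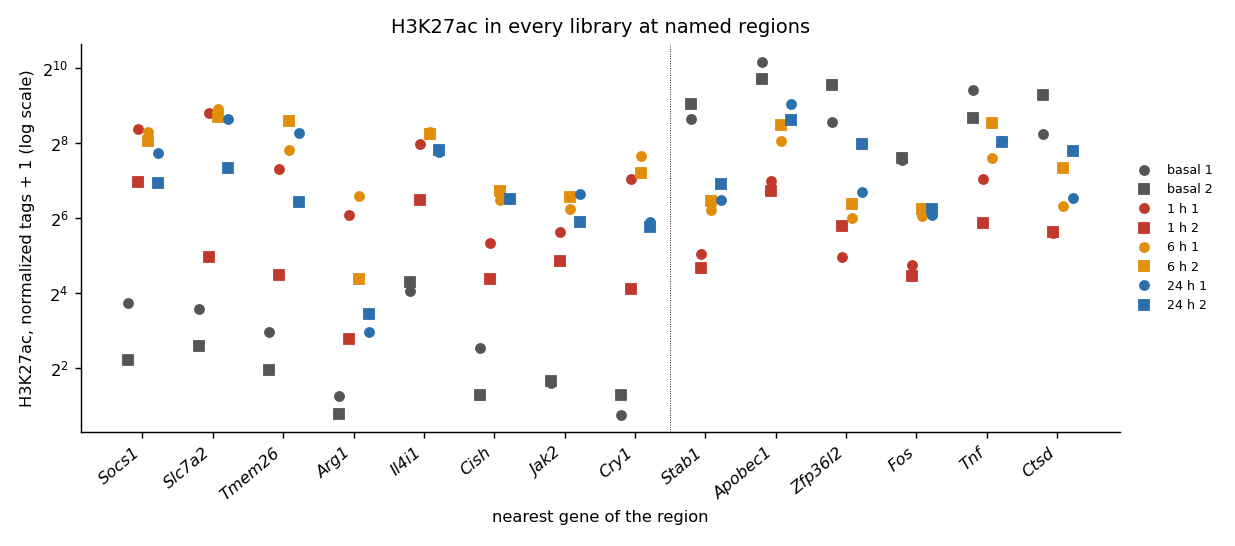
H3K27ac in normalized tags plus 1, on a log scale, in each of the 8 libraries at 1 named region per gene; colours give basal, 1, 6 and 24 h, circles replicate 1 and squares replicate 2, and the dotted line parts risen (left) from fallen (right) regions. At Socs1 the values go from 12.2 and 3.57 to 328 and 122 tags, at Stab1 from 396 and 519 to 31.7 and 24.4.

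The 638 fallen regions were among the most acetylated in basal cells. Their median was 313 and 347 tags in the basal libraries and 56.4 and 40.6 at 1 h, and 89.8% had a basal mean over 100 tags, as did 24.6% of all regions. They formed 434 loci, with 563 regions within 100 kb of 301 gene starts. Of the 7925 regions of the highest basal-level class 5.05% fell. They were bound in basal cells: 84.3% held a basal STAT6 peak, 91.7% a PU.1 peak, 46.4% a C/EBPβ peak and 30.4% a PPARγ peak, against 36.4%, 62.3%, 20.8% and 8.28% of all regions. STAT6 peaks were listed at 1 h in 50.2% and gained in 0.470%. These shares were not compared at an equal basal level. The falls were called on these same basal H3K27ac values, so a high basal level is favoured by the choice itself.

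Among the falls, Stab1, the scavenger receptor stabilin-1, had 396 and 519 tags at its promoter in basal cells and 31.7 and 24.4 at 1 h (log2 fold -3.98 ± 0.54, adjusted p = 0.00349). Pol II there was 168, 215, 313 and 218 basal and 38.1 at 1 h, so in both assays each 1 h library lay below each basal library. Apobec1, an RNA-editing cytidine deaminase, held 6 falls; its region 585 bp past the start (chr6:122599042-122600042) went from 1146 and 824 to 124 and 104 tags (log2 fold -3.08 ± 0.57, adjusted p = 0.0108). Pol II at that region was 726, 1379, 1087 and 1006 basal and 186 at 1 h. Zfp36l2, which promotes decay of AU-rich mRNAs, held 14 falls of 60 regions, with the named one going from 377 and 746 to 30.2 and 54.4 tags. Lrp1, an endocytic receptor, held 11 falls of 22 regions, and at the named one the level went from 331 and 272 to 51.8 and 28.2 tags.

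Macrophage lineage genes carried more falls than rises. Of 370 regions 11 fell (2.97%) and 2 rose (0.541%), against 0.792% and 1.14% of all regions within 100 kb. The median log2 fold of the 370 was -1.12 with library totals and -0.33 with median ratios. A region 8877 bp upstream of Fcgr1, the high-affinity IgG receptor, fell from 187 and 170 to 11.6 and 13.8 tags (log2 fold -3.71 ± 0.56, adjusted p = 0.00538). Ctsd, the lysosomal protease cathepsin D, fell 1587 bp upstream of its start from 303 and 618 to 47.2 and 47.9 tags (adjusted p = 0.0119). Regions nearest Aif1, Maf, a transcription factor of resident macrophages, and Runx1 fell as well. The 2 rises were a Fcgr3 region, from 6.11 and 7.13 to 35.6 and 30.6 tags, and a Mitf region with no basal read and 6.18 and 4.13 tags at 1 h.

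The leukocyte receptor genes Cd300e and Cd300ld3, neighbours on chromosome 11, fell at regions that reached low levels. The Cd300e region went from 142 and 235 to 10.1 and 12.4 tags, and the Cd300ld3 region from 35.3 and 111 to 1.55 and 3.79. The groups did not overlap at either region. Fcrl1, known from lymphocyte signalling, fell at a region just past its start, from 242 and 285 to 11.6 and 26.2 tags. At the start of Ms4a1, which encodes the B cell antigen CD20, the level was 82.1 and 94.1 tags basal and 11.6 and 21.7 at 1 h, and the part of other cells in these values was not tested.

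The libraries at 6 and 24 h share the basal libraries with the 1 h comparison, so only the levels are set side by side. Over the 972 risen regions the median was 28.5 and 22.5 tags at 6 h and 16.98 and 15.8 at 24 h, above both basal medians. At the Socs1 region 1169 bp past the start it was 311 and 262 at 6 h and 211 and 120 at 24 h. At the Cish region the 6 h (87.0 and 105) and 24 h (89.1 and 89.3) levels were above both 1 h values. At 1700010I14Rik the level was 52.4 and 21.3 at 6 h and 8.49 and 5.25 at 24 h, and at Ang5 206 and 262 and then 202 and 221. Over the 638 fallen regions the median was 92.0 and 116 at 6 h and 121 and 133 at 24 h, between the 1 h and the basal medians. At Stab1 it was 72.4 and 86.4 at 6 h and 87.4 and 117 at 24 h. At single regions the later levels thus lay below, near or above those at 1 h.

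Pol II, measured in libraries that took no part in the choice of the regions, was shifted in the same directions. The median over the risen regions was 4.68, 2.41, 1.61 and 3.04 tags in the 4 basal libraries and 11.2 in the 1 h library, with quartiles of 4.57 and 24.9. Of the 972, 376 (38.7%) passed a 2.5-fold rule with at least 8 tags in the higher direction and 2 in the lower, against 2.76% and 6.56% of all regions. Over the fallen regions the medians were 41.2, 62.6, 73.2 and 60.3 basal and 16.8 at 1 h, and 483 (75.7%) passed the rule as lower and 0 as higher. The basal Pol II replicate nearest the 1 h library was replicate 1 in both groups of regions. The share of Pol II tags inside the regions was 26.7% at 1 h and 28.2 to 40.1% in the basal libraries, and the values were not rescaled. Over all regions the median log2 fold of Pol II was -0.28. The part of this lower share in the Pol II shifts was not tested. With 1 Pol II library at 1 h there is no replicate check, and the rule is a description.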

How the data were processed

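H3K27ac ChIP-seq reads were aligned by the authors with Bowtie2 to mm10, and HOMER counted tags in 1000 bp around the centres of merged ATAC-seq peaks. The deposited signal values are tags scaled by the authors to 10000000 tags of each library's total, as the file headers give it, with 1 column per library and replicates not pooled. All 1403190 values gave whole reads within 0.1 read (100%). Replicates of a group differed beyond sampling noise (chi-square per degree of freedom 6.98 to 16.8).

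limma 3.58.1 was fitted with a trend to log2(normalized tags + 1) of all 77955 regions in the 8 H3K27ac libraries of the C57 time course (basal, 1, 6 and 24 h, 2 each), without a filter on low values, and the contrast of 1 h and basal was adjusted by Benjamini-Hochberg (threshold 0.05). Folds are on that scale, which understates changes of low regions. The fit was repeated after median-ratio scaling. edgeR 4.0.16 and DESeq2 1.42.0 ran on the recovered reads as alternatives. On simulated reads, 40% of 4-fold and 100% of 16-fold changes were recovered, with 7 false calls. The simulation used library totals, the spread of the basal pair and an equal share of tags in regions in every library. Only regions with a mean above 16 tags were changed. In the data the SD of the log2 ratio between replicates was 0.92 in the basal pair and 1.13 at 1 h. These figures therefore do not describe calls at low regions or under the unequal shares.

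Each region was given the nearest protein-coding start of GENCODE vM21, within 100 kb for gene counts. A list of STAT6, EGR2, PU.1, C/EBPβ or PPARγ peaks, deposited by the authors per condition with a reproducibility score per peak that was not used, overlapped a region by at least 1 base. Motifs were searched in the central 200 bp of GRCm38.p6, in which 500 of 500 RefSeq promoters matched. Regions were named by rule: the 12 largest rises and falls called under both scalings, past the fold rule and without overlap of libraries; up to 4 per direction for each gene list; the 8 genes with the most calls; and 11 genes set by name. The other called regions of Socs1 and Arg1, and the sequences shown, were chosen after their values were seen. Members and lists were chosen with earlier results of these data known. Intervals and floors cover counting error only. Pairing by replicate number was not assumed, since the 2 numbers rest on no shared animal in the labels. Some items the naming rule covers are not reported here.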

Additional observations from a re-analysis of the deposited data

Results flagged for a closer look

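Dixon's test at the 95% level flagged 1 of the 4 basal Pol II libraries at 2 of the named regions. The test flags about 1 in 20 groups by chance. At the region 1169 bp past the Socs1 start, basal replicate 2 had 22.47 normalized tags against 11.86 to 13.16 in the others, and the 1 h library had 519. At the region 25293 bp upstream of Arg1, basal replicate 4 had 2.03 tags and the others 0, and the 1 h library had 13.2. With the others all at 0 any value above 0 is flagged, so the flag at Arg1 carries no information. Neither value reached the 1 h library.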

How the results depend on the processing

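Counts of calls depended on the settings, and the cause was not tested. Against 1065 regions higher by limma with library totals, there were 597 with a mean of at least 16 tags, 289 with only the basal and 1 h libraries in the fit, 2726 with DESeq2, 2974 with a replicate block and 5007 with that block and median ratios. Against 6515 lower there were 638 with median ratios, 199 with median ratios over promoters, 563 with only the 4 libraries, 621 with edgeR and TMM, 2100 with DESeq2 and 17121 with the replicate block. Leaving out single libraries gave 95 to 1508 higher and 95 to 21163 lower, fewest without basal replicate 2 in each case. Against 1800 past the fold rule as higher there were 4116 with median ratios, 5382 with median ratios over promoters, 5246 without a filter on low values and 992 with at least 32 tags, and 595 to 3835 without single libraries. Against 16049 lower there were 3678 with median ratios and 1805 with median ratios over promoters, and 11599 to 29007 without single libraries. Alternatives for the calls under both scalings were added after seeing the data: 2874 rose and 4606 fell with the replicate block, 990 and 621 with edgeR, and without single libraries 95 to 1504 and 15 to 1318. Deviations of same-numbered libraries correlated at 0.03 to 0.73 over regions, and 2 numbers do not settle whether they pair. The Ccl24 fold reversed to 0.23 with median ratios, 0.38 with edgeR and TMM and 0.36 with DESeq2. Of 95 named regions, 51 lost their call without basal replicate 2, 16 without basal replicate 1, 14 without 1 h replicate 1 and 7 without 1 h replicate 2. The 2 libraries per group, the low share of tags in regions at 1 h and 1 Pol II library at 1 h limit the precision.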

Other observations

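Of the 12523 promoter regions 40 rose (0.319%) and 66 fell (0.527%), and their median H3K27ac was 101.1 and 78.4 tags in the basal libraries and 62.6 and 28.2 at 1 h. Intergenic regions, 25569 in number, had 1.77% rises and 1.05% falls, with medians of 12.9 and 12.8 tags basal and 11.6 and 7.57 at 1 h. The median log2 fold was -1.03 at promoters and -0.49 at intergenic regions with library totals, and -0.24 and 0.19 with median ratios, so the sign at intergenic regions depended on the scaling.

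Rises without STAT6 peaks at either time numbered 356 of the 972. Of the 389 risen regions without a 1 h STAT6 peak, 11.3% held the 4-spacer site, 20.1% an AP-1 word and 15.9% a C/EBP word, against 54.0%, 25.6% and 21.1% of the 583 with one. Of the 14194 regions with an EGR2 peak at 1 h, 140 rose (0.986%) and 136 fell (0.958%).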
